A study of Mus musculus with 12 samples.

Results

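To ask which genes differ between naïve ESCs that carry active and inactive TET2, the WT and mutant TET2 rescue lines grown in 2i medium were compared across all genes. The comparison comprises 6 of the 12 libraries of the study, 3 of each line, chosen by the medium and the rescue construct in their labels. Of the 26061 genes measured, 14185 had a mean over all 12 libraries at least 1 above the lowest value and were tested, of which 13628 are autosomal. Both lines are mouse Tet2 KO ESCs into which a PiggyBac vector had stably introduced either WT TET2 or the catalytic mutant with H1304Y and D1306A. All libraries, of both lines, carry the shRNA against Setdb1 (shSetdb1), delivered by lentivirus, with selection in 1 µg/ml puromycin from 48 hours after infection and collection after 3 days of selection. Naïve cells were grown without feeders in 2i medium, which holds LIF and inhibitors of MEK (PD0325901) and of GSK3 (CHIR99021), and the primed cells used for comparison in serum and LIF. The comparison is thus of lines depleted of SETDB1, and control shRNA libraries were not analysed here. Whether each line is 1 clone is not given in the sources used here, so a difference between the constructs and a difference between the lines cannot be told apart, and p-values measure the spread between libraries of 1 line.

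TET enzymes oxidise methylated cytosine, mostly where a C is followed by a G, which is a step towards its removal from DNA. TET1 and TET2 are the members best known in ESCs. SETDB1 methylates lysine 9 of histone H3 and is required in ESCs for the silencing of endogenous retroviruses and of some germline genes. The 2i medium lowers DNA methylation across the genome of ESCs.

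Poly(A) RNA was sequenced, and the values are variance-stabilised read counts on a log2 scale. Differences are given as WT minus mutant on this scale, which is compressed at low counts, so folds of normalised reads are given beside them. Reads in genes per library totalled 10090165 to 12357101 with WT TET2 and 11187137 to 20189214 with mutant TET2. The naïve ESC markers Nanog, Esrrb, Klf4, Tbx3, Zfp42, Pou5f1 and Sox2 had 874 to 30467 reads each in every library. Summed reads per library of the trophoblast markers did not exceed 2, those of the blood markers were 0, and those of the epiblast-like, primitive endoderm, mesoderm and fibroblast markers lay between 31 and 122. Pax6 and Tubb3, from the neural list, had 144 to 1513 reads in every library, while Neurog2 and Dcx had at most 2. None of the marker genes tested differed between the lines at an adjusted p under 0.05, in the unpaired comparison or with the replicate block.

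In the unpaired comparison 14 genes differed between the lines, 0.0987% of those tested (limma, adjusted p under 0.05). Of these, 6 were autosomal and 8 lay on the Y chromosome. Tet2, Akd1, Cyp4a12b, Dnahc6 and Trim5 rose with WT TET2, and Cyba fell, where 0.0916% of all genes tested were called higher and 0.00705% lower. Same-numbered naïve libraries deviated together, so the comparison was also made with the replicate number as a block. With the block 36 genes differed, 0.254% of those tested, and 22 of them were autosomal, 11 higher and 11 lower with WT TET2, where 0.162% of all genes tested were called higher and 0.0916% lower. All 6 autosomal genes of the unpaired comparison were among the 22. With the block and the 6 naïve libraries fitted alone, 541 genes differed (3.81%), 488 of them autosomal, with 211 higher and 277 lower, and all 22 were among them. That fit leaves out the primed libraries and has 2 residual degrees of freedom in place of 4. In primed libraries deviations correlated at -0.07 to 0.19 for equal and -0.26 to 0.21 for different replicate numbers. Each of the 14 Y-linked genes tested was higher with WT TET2, by a median of 1.35, and their small p-values enter the adjustment for all genes. Without the genes of the X and Y chromosomes, 0 genes passed in the unpaired comparison, where 1795 had an unadjusted p under 0.05, while 10 passed with the block (0.0733%) and 464 with the block in naïve libraries alone (3.4%).

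**Figure D1:**
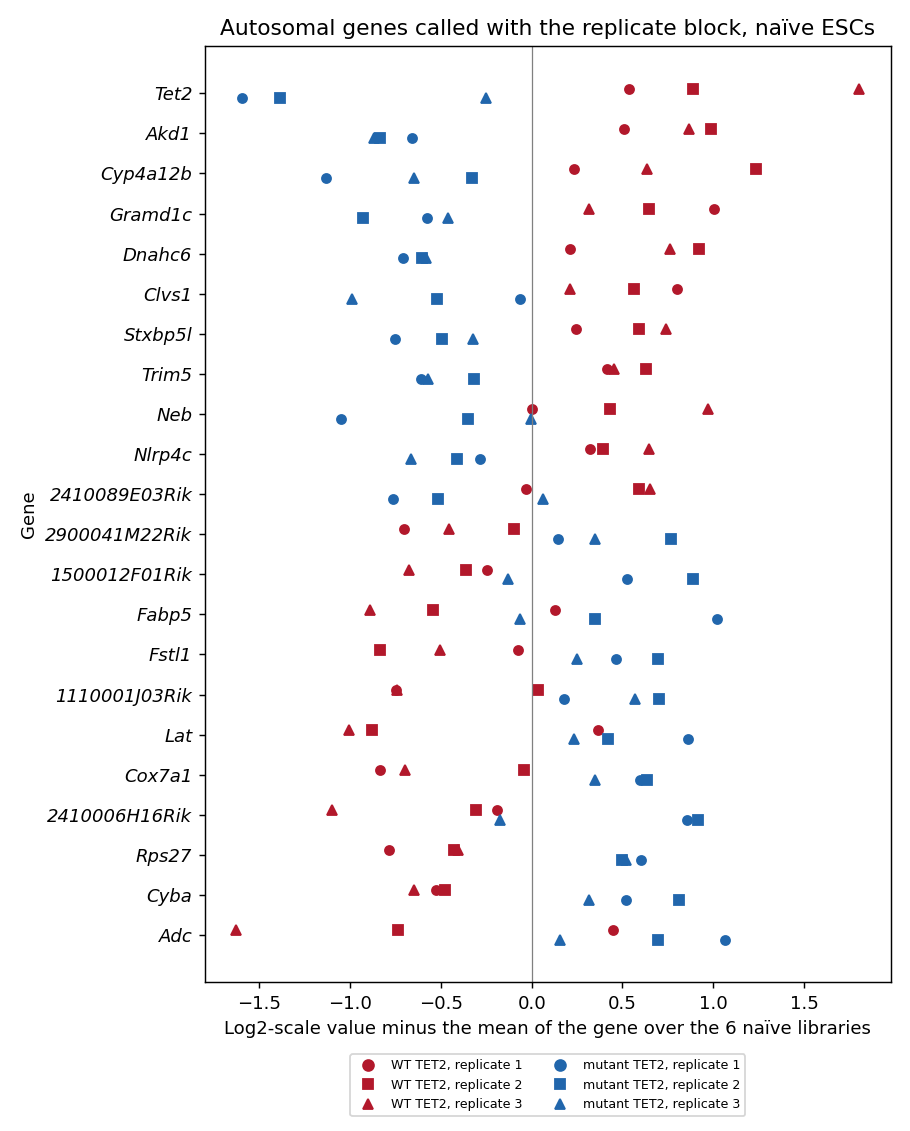
Values of the 22 autosomal genes called with the replicate block, as the log2-scale value of each library minus the mean of the gene over the 6 naïve libraries (horizontal axis), with 1 row per gene. Red symbols are WT and blue symbols mutant TET2 libraries, and the symbol shape gives the replicate number. The lines did not overlap for 18 of the 22 genes, against 16.8% of all genes tested. Each of the 22 had 1 direction in its 3 replicate pairs, where 22% of all genes were higher and 21.8% lower in 3 of 3. The 22 were chosen by a test on these same values, so both counts are a description.

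Tet2 was read in both lines, at 12.73, 13.09 and 14.001 with WT and 10.60, 10.81 and 11.95 with mutant TET2 in replicates 1 to 3. Replicate 3 was the highest of each line, and the pair differences were 2.13, 2.28 and 2.06. The mean difference was 2.16 (standard error 0.34 unpaired and 0.18 with the block; limma, adjusted p = 0.0154 and 2.99e-06), or 4.42-fold in normalised reads. The counts do not separate construct reads from those of the endogenous locus (chromosome 3, 133126643 to 133207354 of mm9, minus strand). By western blot the paper reports similar amounts of TET2 protein in the WT and mutant rescue lines, and protein cannot be read from these libraries. A difference in the amount of Tet2 RNA and one in catalytic activity cannot be told apart here. Tet1, which shares the catalytic activity, was at 12.39, 11.68 and 12.04 with WT and 11.63, 11.02 and 11.59 with mutant TET2. The lines did not overlap, but of these 3 fits the difference of 0.62 passed that with the block in naïve libraries alone (limma, adjusted p = 0.0314, against 0.321 unpaired and 0.14 with the block in all libraries). With each library corrected for the exon length and GC content of the genes, it was 0.29 and no longer passed (adjusted p = 0.0851). Tet3 differed by -0.03 and Setdb1 by 0.13, each with overlapping lines (limma, adjusted p = 0.97 and 0.857).

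Akd1, listed by RefSeq as Ak9 and encoding an adenylate kinase, showed the largest autosomal rise after Tet2. It was at 9.20, 9.69 and 9.56 with WT and 8.04, 7.86 and 7.83 with mutant TET2. The lowest WT library lay 1.16 above its pair, and the mean difference was 1.57 (standard error 0.19 with the block; limma, adjusted p = 0.000603, and 0.0485 unpaired), or 3.25-fold in normalised reads. Cyp4a12b, a cytochrome P450 of the family that hydroxylates fatty acids, was at 7.23, 8.24 and 7.64 with WT and 5.87, 6.67 and 6.35 with mutant TET2. Its difference of 1.40 (limma with the block, adjusted p = 0.000771, and 0.0440 unpaired) corresponds to 3.44-fold in normalised reads. The neighbouring tested gene, Cyp4a12a, is its close paralogue, so reads may be split between them, and it was higher by 0.88 with WT TET2 in 3 of 3 pairs (limma with the block, adjusted p = 0.0549, and 0.0233 in naïve libraries alone). Dnahc6, an axonemal dynein heavy chain that moves cilia, was at 6.24, 6.95 and 6.79 against 5.32, 5.43 and 5.45, with 18 reads in the lowest library. The 1.26 difference (limma with the block, adjusted p = 0.00498, and 0.0332 unpaired) is 4.11-fold in normalised reads. Trim5, of the tripartite motif family that includes restriction factors for retroviruses, was at 7.37, 7.59 and 7.41 against 6.35, 6.64 and 6.39, a difference of 1.00 that was 1.03, 0.95 and 1.03 in the pairs (limma with the block, adjusted p = 0.0186, and 0.0485 unpaired). The annotation places Trim34a across it on the other strand, and the libraries keep no strand.

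Cyba was the only autosomal gene to fall in the unpaired comparison. It encodes p22phox, the membrane subunit that stabilises NADPH oxidases. It was at 7.74, 7.79 and 7.62 with WT and 8.79, 9.08 and 8.59 with mutant TET2. The difference was -1.10 (limma with the block, adjusted p = 0.0184, and 0.0440 unpaired), or 2.33-fold fewer normalised reads with WT TET2. Of the 17 NADPH oxidase subunits and partners listed, 8 were tested, and Cyba was the only one called in any of the 3 fits; the median over the 8 was 0.04. None of the 12 nearest tested genes on either side of these 6 genes was called unpaired or with the block. Of all genes tested, 0.0987% and 0.254% were called in these fits. The differences of the 12 lay between -0.60 and 0.88.

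The promoters of 4 of these genes are shown because TET2 acts on methylated C followed by G, and they differ widely in how many such pairs they hold. They are RefSeq sequences of GRCm38.p6, from 250 bases before to 50 after the start, in the direction of transcription, with each CG pair in capitals; CG reads the same on both strands.
Akd1 (chr10:41303684-41303983, plus strand): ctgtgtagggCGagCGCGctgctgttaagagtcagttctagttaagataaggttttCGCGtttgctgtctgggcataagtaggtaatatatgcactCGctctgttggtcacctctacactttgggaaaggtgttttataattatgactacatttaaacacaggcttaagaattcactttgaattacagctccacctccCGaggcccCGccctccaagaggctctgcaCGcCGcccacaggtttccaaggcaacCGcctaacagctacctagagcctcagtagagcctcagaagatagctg
Dnahc6 (chr6:73221582-73221881, minus strand): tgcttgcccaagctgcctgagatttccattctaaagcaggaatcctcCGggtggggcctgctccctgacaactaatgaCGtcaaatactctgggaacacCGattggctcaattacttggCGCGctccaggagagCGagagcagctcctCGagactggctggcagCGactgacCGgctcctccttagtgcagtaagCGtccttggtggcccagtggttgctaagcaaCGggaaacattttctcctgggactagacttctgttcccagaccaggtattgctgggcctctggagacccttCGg
Trim5 (chr7:104288057-104288356, minus strand): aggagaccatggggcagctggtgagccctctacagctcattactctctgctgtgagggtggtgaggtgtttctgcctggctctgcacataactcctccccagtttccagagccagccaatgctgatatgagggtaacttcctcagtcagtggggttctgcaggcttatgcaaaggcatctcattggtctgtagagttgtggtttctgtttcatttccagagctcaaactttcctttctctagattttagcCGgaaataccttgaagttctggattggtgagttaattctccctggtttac
Cyba (chr8:122432891-122433190, minus strand): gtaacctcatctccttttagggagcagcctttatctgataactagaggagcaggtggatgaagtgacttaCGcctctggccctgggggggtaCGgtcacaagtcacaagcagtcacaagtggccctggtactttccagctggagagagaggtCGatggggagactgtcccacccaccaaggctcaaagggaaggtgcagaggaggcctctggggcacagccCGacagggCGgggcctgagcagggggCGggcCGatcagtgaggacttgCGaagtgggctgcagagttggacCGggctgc
Akd1 held 11 CG pairs, Dnahc6 12, Trim5 1 and Cyba 9. At least as many were found in 41.4%, 39.6%, 94.6% and 45.8% of the 32851 promoters of the table, in that order. The median was 7 pairs over all these promoters and 20 over those of the 10689 tested genes with a promoter, above the number in each of the 4. The promoter of Tet2 held 57, and Cyp4a12b was not matched. DNA methylation was not measured in these libraries. Split by the CG pairs of their promoters, the 3563 tested genes with the fewest had a median difference of -0.03 and the 3563 with the most a median of 0.05, and of -0.02 and 0.02 after the correction for exon length and GC.

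Another 6 autosomal genes rose with WT TET2 under the block alone, and their known roles lie in membranes, cilia, muscle and oocytes. Gramd1c, a sterol-binding protein of the endoplasmic reticulum, was at 6.97, 6.62 and 6.29 with WT and 5.39, 5.04 and 5.51 with mutant TET2. This is a difference of 1.31 (limma with the block, adjusted p = 0.0112), on 10 to 85 reads per library. Clvs1, a lipid-binding protein of clathrin-coated vesicles, differed by 1.05 (adjusted p = 0.0337) and overlaps Asph on the other strand. Stxbp5l, a regulator of vesicle fusion, differed by 1.05 as well, with pair differences of 1.00, 1.09 and 1.06 (adjusted p = 0.0184). Neb, the giant sarcomere protein nebulin, differed by 0.94 and 2410089E03Rik, listed by RefSeq as the cilium gene Cplane1, by 0.81 (adjusted p = 0.0350 each). Nlrp4c, of a family expressed in oocytes and with near-identical members that may share reads, was at 9.49, 9.56 and 9.81 against 8.89, 8.76 and 8.50, a difference of 0.91 (adjusted p = 0.0376). The lines did not overlap for 5 of these 6 genes. The exception was 2410089E03Rik, at 10.33, 10.95 and 11.01 against 9.60, 9.84 and 10.42. Over all genes tested the lines did not overlap for 16.8%, 8.78% with WT TET2 higher and 8.01% with it lower.

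The 10 other autosomal genes that fell with WT TET2 under the block had exon lengths of 345 to 4914 bases. They included 2 subunits of large complexes, Rps27 of the ribosome and Cox7a1 of cytochrome c oxidase. Rps27 was at 8.76, 9.12 and 9.14 with WT and 10.15, 10.05 and 10.07 with mutant TET2 (difference -1.08; limma with the block, adjusted p = 0.0350), and it has close copies that may share its reads. Cox7a1 was at 8.34, 9.13 and 8.48 against 9.77, 9.81 and 9.53 (difference -1.05; adjusted p = 0.0337). Neither gene had overlapping lines. 1110001J03Rik, listed by RefSeq as Fmc1 and needed for the assembly of ATP synthase, differed by -0.97 (adjusted p = 0.0424). 2410006H16Rik and 1500012F01Rik (Zfas1 in RefSeq) are spliced RNAs that host small nucleolar RNAs, and they differed by -1.07 (adjusted p = 0.00571) and -0.86 (adjusted p = 0.0350).

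Among the lower genes with roles in signalling and metabolism, Adc, listed by RefSeq as the antizyme inhibitor Azin2 of polyamine metabolism, had the largest difference. It was at 7.95, 6.77 and 5.88 with WT and 8.57, 8.20 and 7.66 with mutant TET2. The lines overlapped, but WT was lower in each pair, with pair differences of -0.61, -1.43 and -1.78 (difference -1.28; limma with the block, adjusted p = 0.0107, and 0.254 unpaired). Fstl1, a secreted glycoprotein, was at 7.53, 6.77 and 7.10 against 8.07, 8.30 and 7.85 without overlap (difference -0.94; adjusted p = 0.0432). Fabp5, a fatty acid carrier, was at 8.43, 7.76 and 7.41 against 9.32, 8.65 and 8.24 (difference -0.87; adjusted p = 0.0424). Its lines overlapped, while its pair differences were -0.89, -0.90 and -0.83. Lat, an adaptor of the T cell receptor, differed by -1.01 with 21 reads in the lowest library (adjusted p = 0.0350), and the long non-coding RNA 2900041M22Rik by -0.84 (adjusted p = 0.0451). Of the 44 nearest tested genes on either side of these 22 genes, 0 were called with the block, against 0.254% of all genes tested. With the block in naïve libraries alone 3 were called, against 3.81% of all genes. The direction of the gene beside them was shared by 25, where by sign 50.4% of all genes were higher and 49.6% lower.

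The differences between the lines followed the length and the base composition of transcripts. Of 10 equal groups of genes by exon length, the group with the shortest exons (36 to 1189 bases) had a median difference of -0.24, and that with the longest (7888 bases and more) a median of 0.18. By GC content, the medians went from 0.24 in the group with the lowest GC to -0.15 in that with the highest. Across genes Spearman's rho was 0.39 with exon length (14167 genes) and -0.41 with GC (13293 genes); these genes share the same 6 libraries. Single libraries contributed unequally. In the group with the shortest exons the libraries deviated from the gene means by -0.25, 0.08 and -0.18 with WT and by 0.05, 0.23 and 0.10 with mutant TET2 in replicates 1 to 3, and in the group with the lowest GC by 0.03, -0.03 and 0.34 and by -0.10, -0.01 and -0.22. The autosomal genes called higher with the block in naïve libraries alone had a median exon length of 6455 bases and a median GC of 43.3%. Those called lower had 1140 bases and 53.9%, and all autosomal genes tested 3445 bases and 50.6%. Whether RNA quality or library preparation contributed was not tested.

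**Figure D2:**
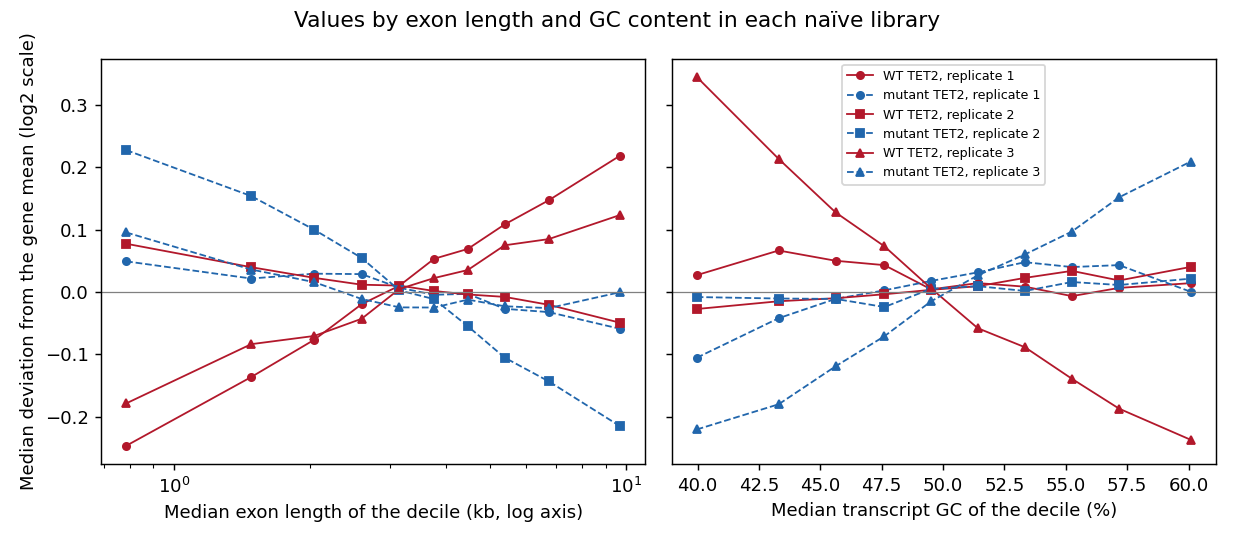
Median deviation from the gene mean over the 6 naïve libraries (log2 scale, vertical axis) in 10 equal groups of the tested genes by exon length (left, kb on a log axis) and by transcript GC content (right, %). Red solid lines are WT and blue dashed lines mutant TET2 libraries. WT replicates 1 and 3 rose with length and mutant replicate 2 fell, while WT replicate 3 and mutant replicate 3 diverged in opposite directions with GC.

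The comparison was therefore repeated after each library had been corrected for exon length and GC content, over the 13293 genes with both. The 20 genes of the 22 that had both properties kept their direction, as did 10608 of all 13293 genes. All 20 were called with the block in that fit, against 5.14% of all genes. The 22 were chosen by a test on these same libraries, so both counts are a description. The 3 largest shifts were in short genes, with Cox7a1 at -0.63, Rps27 at -0.70 and Cyba at -0.73 after the correction, and Neb was at 0.62 and 1110001J03Rik at -0.61, while Tet2 was at 1.90, Cyp4a12b at 1.41, Akd1 at 1.37, Fstl1 at -1.05 and Fabp5 at -0.97. With the correction 19 genes were called unpaired (0.143%), 683 with the block (5.14%) and 1236 with the block in naïve libraries alone (9.3%, 4.58% higher and 4.72% lower). Unpaired, 10 were autosomal, and 2 of the 6 autosomal genes called on the deposited values were among them, namely Tet2 and Cyp4a12b. Of the 541 genes called with the block in naïve libraries alone, 354 were also called after the correction, of 516 that had both properties.

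Gene functions were described with 43 lists of pathways, lineages and complexes, by counts and medians beside those of all genes tested, whose median difference was 0.00. In the unpaired fit and in that with the block in all libraries, most lists had no called gene. Counts are of genes called with the block in naïve libraries alone, in which 1.8% of all genes tested were higher and 2.02% lower with WT TET2. Counts after the correction are of the same fit on corrected values, in which 4.58% of all genes were called higher and 4.72% lower. By sign alone, 50.4% of all genes tested were higher and 49.6% lower on the deposited values. Signs were not counted after the correction.

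**Figure D3:**
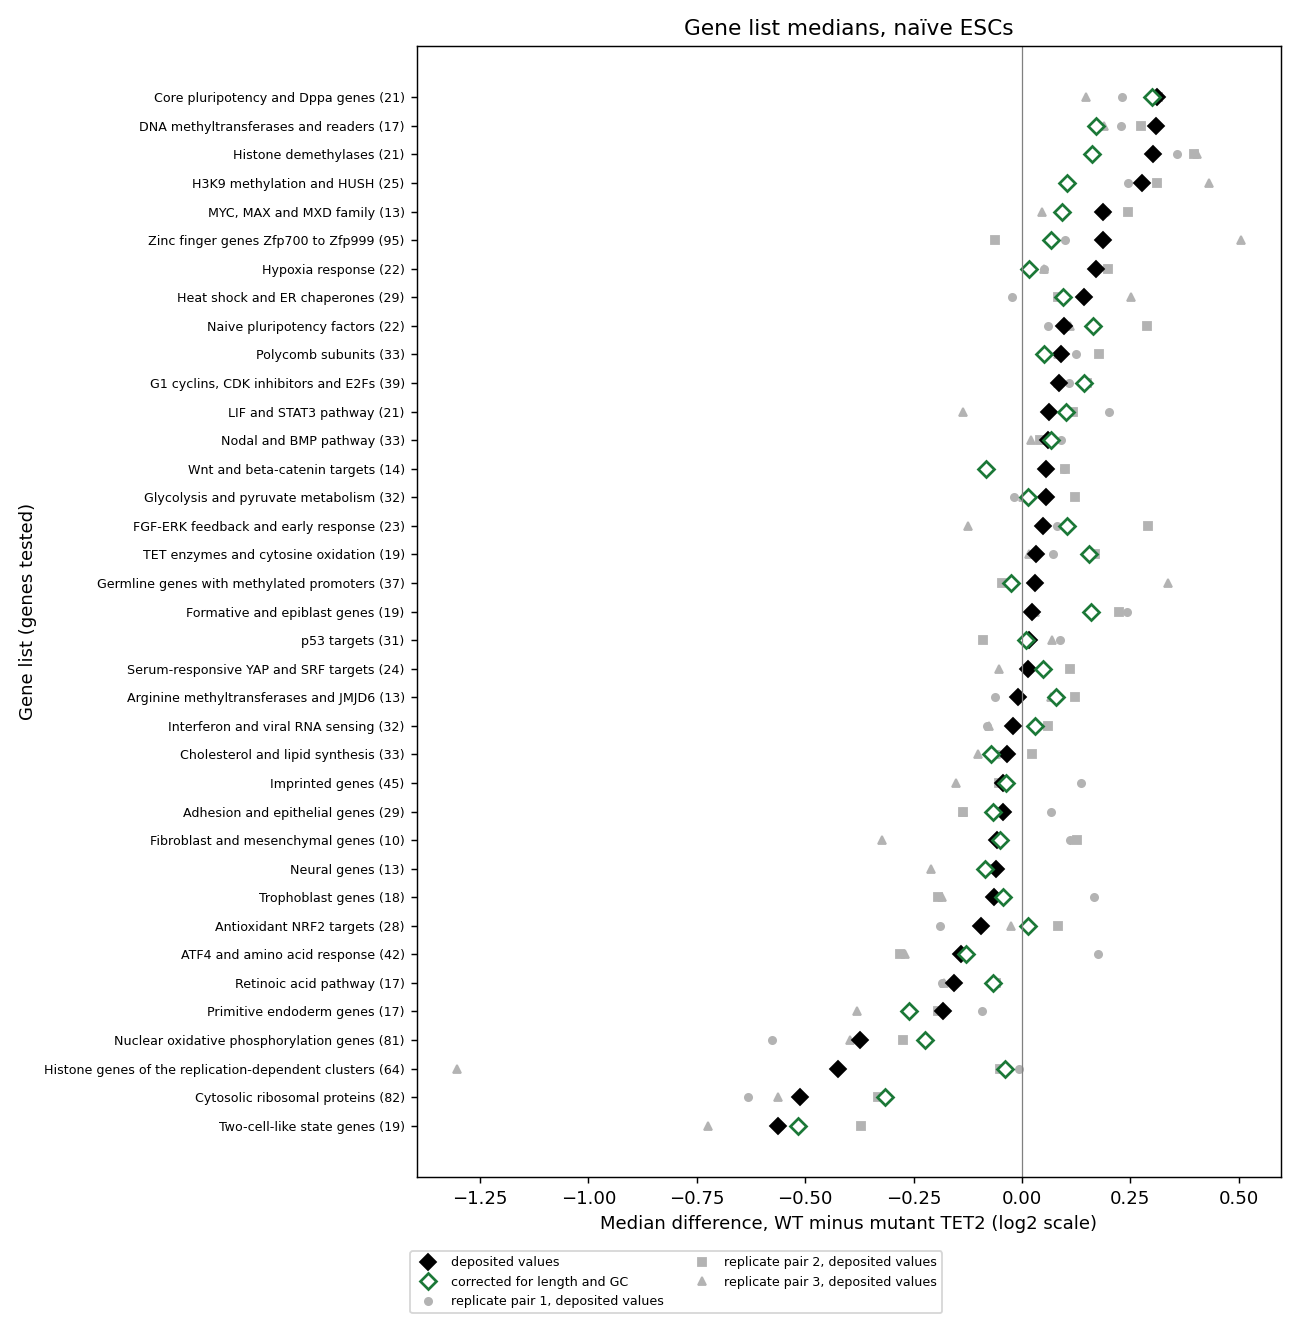
Median difference (WT minus mutant TET2, log2 scale, horizontal axis) over the tested genes of each list with at least 10 tested, the number of which stands in parentheses. Black diamonds show deposited values, open green diamonds values corrected for exon length and GC, and grey symbols the medians of replicate pairs 1 to 3. The lists farthest below 0 were those of the two-cell-like state, ribosomal proteins, histone clusters and oxidative phosphorylation.

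Genes of the two-cell-like state had the lowest median of all lists with at least 10 genes tested. This state is a rare and transient condition of ESC cultures, in which genes of the early embryo such as the Zscan4 cluster are transcribed. Of 38 genes listed 28 were in the table and 19 were tested, with a median of -0.56. In the pairs the median was -0.56, -0.37 and -0.72. Unpaired and with the block in all libraries 0 of the 19 were called. With the block in naïve libraries alone 8 of the 19 fell and 0 rose. Some of these rest on few reads, such as BC080695 with 3, 2 and 7 with WT and 28, 6 and 40 with mutant TET2. Gm2016, which had the largest difference, was at 6.41, 6.38 and 7.04 with WT and 7.60, 7.37 and 8.004 with mutant TET2. It differed by -1.05 (limma with the block in naïve libraries alone, adjusted p = 0.00676, 0.0701 with the block in all libraries and 0.281 unpaired). Gm4340 differed by -0.81 (adjusted p = 0.0296 in naïve libraries alone), and by -0.52 after the correction, where it did not pass (0.0813). Neither gene had overlapping lines. From the Zscan4 cluster, zinc finger genes that mark the state, Zscan4c (24, 31 and 28 reads against 82, 56 and 180) and Zscan4f (20, 32 and 33 reads against 95, 43 and 189) differed by -0.94 and -0.92 (adjusted p = 0.0201 and 0.0257), and both were named after their values were seen. These genes have near-identical copies between which the counting may split reads, so they do not count as separate observations.

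The two-cell-like genes had a median exon length of 2084 bases and a GC content of 44.4%, and their median after the correction was -0.52. In that fit 8 were called lower and 1 higher, 42.1% and 5.26% against 4.72% and 4.58% of all genes. Leaving out single libraries moved the median to between -0.68 and -0.42. In primed ESCs the median was -0.93. Not every gene of the list had this direction, and Eif1a and Zfp809, a zinc finger repressor of retroviruses, had differences of 0.42 and 0.31 (adjusted p = 0.121 and 0.252 in naïve libraries alone). In these bulk libraries fewer cells in the state and less RNA per cell cannot be told apart.

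**Figure D4:**
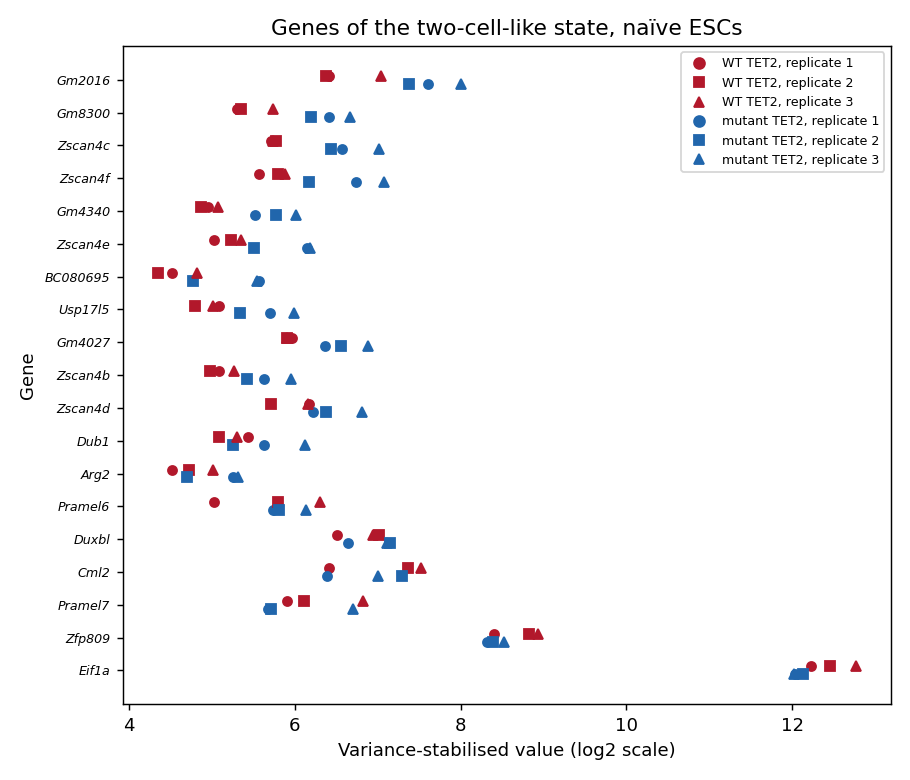
Variance-stabilised values (log2 scale, horizontal axis) of the 19 tested genes of the two-cell-like state in the 6 naïve libraries, with 1 row per gene. Red symbols are WT and blue symbols mutant TET2 libraries, with the shape giving the replicate. For 10 of the 19 genes all mutant libraries lay above all WT libraries, and for 1 the reverse held, against 8.01% and 8.78% of all genes tested.

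Genes of translation and respiration had negative medians. All 82 ribosomal protein genes tested had a negative difference, with a median of -0.51, and 24 fell while 0 rose. Of 81 nuclear genes for oxidative phosphorylation, whose products make up the respiratory chain and ATP synthase, 77 were lower, with a median of -0.37, and 20 fell while 0 rose. Besides Rps27 and Cox7a1 these included Rps28 (-0.95), Rps19 (-0.79), Atp5e (-0.99) and Uqcr10 (-0.85, and -0.47 after the correction), which were named after their values were seen (limma with the block in naïve libraries alone, adjusted p = 0.0065, 0.0186, 0.0164 and 0.0126). Unpaired, 0 genes of the 2 lists were called, and with the block in all libraries 1 of each, Rps27 and Cox7a1. The median exon lengths of the 2 lists were 1454 and 1287 bases. After the correction for length and GC the medians were -0.32 and -0.22. Of the 82 and 81 genes, 34 and 21 were called lower, 41.5% and 25.9% against 4.72% of all genes, and 0 were called higher. In primed ESCs the medians were -0.50 and -0.43. The replication-dependent histone genes, whose RNAs mostly lack a poly(A) tail, all had negative differences too, 64 of 64 with a median of -0.42, but 0 were called with the block in naïve libraries alone. Their medians in the pairs were -0.01, -0.05 and -1.30, and the median after the correction was -0.04. Without WT replicate 3 the median of the deposited values was 0.00. The 13 mitochondrially encoded genes had 0 reads in every naïve library and were not tested. The values do not say whether these genes were counted, so their expression cannot be read from them.

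Several lists of chromatin regulators had positive medians. Of 25 genes for H3K9 methylation and the HUSH complex 21 were higher, 84% against 50.4% of all genes, with a median of 0.28. Of these genes 6 rose while 0 fell, 24.0% against 1.8% of all genes. The list had a median exon length of 5270 bases and a GC content of 43.4%. Among all genes with a GC content of 41.9 to 44.5%, 71.2% were higher. The median of the list was 0.11 after the correction, with 4 called higher, 16% against 4.58% of all genes. Suv39h2, an H3K9 methyltransferase, was at 9.55, 9.90 and 9.92 with WT and 9.003, 9.30 and 9.26 with mutant TET2 (difference 0.60; limma with the block in naïve libraries alone, adjusted p = 0.0339). D14Abb1e, a gene of this list, was at 10.70, 10.90 and 11.61 against 10.16, 10.31 and 10.50 (difference 0.75, and 0.39 after the correction; adjusted p = 0.0212). Neither gene passed unpaired or with the block in all libraries on the deposited values.
Of 17 DNA methyltransferases and readers 13 were higher, with a median of 0.31 (0.17 corrected), and 1 rose (2 corrected). This was Dnmt3b, a de novo methyltransferase, at 9.91, 10.41 and 10.95 with WT and 9.22, 9.42 and 10.25 with mutant TET2. Its lines overlapped, and its pair differences were 0.69, 0.99 and 0.70 (difference 0.79, and 0.76 after the correction; limma with the block, adjusted p = 0.0519, and 0.0145 in naïve libraries alone). Of 19 genes for cytosine oxidation and its repair, Tet2, Tet1 and the X-linked Ogt were called higher, and the median was 0.03 (0.15 corrected). After the correction Tet1 did not pass, and Ogt was at 0.42 in place of 0.70. The 21 histone demethylases tested had a median of 0.30 (0.16 corrected), and the 2 called are Uty on the Y and Kdm6a on the X chromosome. Polycomb subunits had a median of 0.09 with 0 of 33 called, and arginine methyltransferases a median of -0.01 with 0 of 13 called. Prmt7, of the last list, had a difference of -0.39 without overlap (limma, adjusted p = 0.125 with the block in naïve libraries alone and 0.314 unpaired). After the correction its difference was -0.45. This passed with the block (limma, adjusted p = 0.00636 in naïve libraries alone and 0.025 in all libraries) but not unpaired (0.239). On the deposited values Prmt7 passed in none of the 3 fits (limma with the block in all libraries, adjusted p = 0.167). The paper reports from its RNA-seq data that TET2 activity does not control Prmt5, Prmt7 or Jmjd6. Its methods name DESeq2 and no correction for length or GC.

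Of 22 naïve pluripotency factors 0 were called, with a median of 0.10, and Nanog and Esrrb differed by 0.05 and 0.22. Dppa5a had the largest difference of the list, -0.47 (limma, adjusted p = 0.113 with the block in naïve libraries alone). After the correction 4 of the 22 were called higher, 18.2% against 4.58% of all genes, and the list median was 0.16. Of 21 core pluripotency genes 3 rose, 14.3% against 1.8% of all genes, with a median of 0.31, among them Zfp281 and Rif1. After the correction 7 of the 21 were called higher, 33.3% against 4.58% of all genes, and the median was 0.30. Rif1, a regulator of replication timing, was at 12.80, 12.31 and 13.14 against 12.25, 11.94 and 12.11 (difference 0.66; adjusted p = 0.0376), and 0.26 after the correction, where it did not pass (0.0975). Zfp281, a zinc finger factor, differed by 0.61 (adjusted p = 0.0334), and 0.40 after the correction.
The lineage lists had medians between -0.18 and 0.17, and of 39 Hox genes only 4 passed the filter on low values. In the primitive endoderm list, a median of -0.18 over 17 genes, 14 were lower and 2 fell, Amn (-0.74) and Apoe (-0.57) (adjusted p = 0.0424 and 0.0425). After the correction they were at -0.49 and -0.36, and Amn did not pass (0.0959). Amn had only 8, 13 and 1 reads with WT and 22, 32 and 25 with mutant TET2.

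Among germline genes with methylated promoters, which DNA demethylation is known to activate, 3 rose and 3 fell of 37 tested, with a median of 0.03. After the correction 8 were called higher and 4 lower, 21.6% and 10.8% against 4.58% and 4.72% of all genes, with a median of -0.03. Dazl, an RNA-binding protein of germ cells, and Tex15 differed by 0.76 and 0.87 (0.50 and 0.45 after the correction), and Mael and Dpep3 by -0.72 and -0.94. Pet2, an X-linked gene, had the largest difference of the list, 0.95 (limma with the block in naïve libraries alone, adjusted p = 0.0233). It was at 4.96, 5.53 and 5.67 with WT and 4.31, 4.77 and 4.22 with mutant TET2. This rests on few reads, 8, 23 and 26 with WT and 2, 6 and 2 with mutant TET2. Imprinted genes had a median of -0.04, and of 45 tested Asb4 (0.82), Zdbf2 (0.73), Plagl1 (0.68) and Inpp5f (0.56) rose while H19 fell (-0.88). After the correction Zdbf2 was at 0.38 and Inpp5f at 0.34, and Inpp5f did not pass (adjusted p = 0.0657). H19, with naïve means of 4.17 and 5.05, passed the filter through the primed libraries, has no corrected value and did not pass unpaired (0.281) or with the block in all libraries (0.106). Interferon and viral RNA sensing genes, which respond to double-stranded RNA, had a median of -0.02 with 0 of 32 called. Psmb9 of this list had 1 direction in all pairs, at 4.96, 4.72 and 4.89 against 5.57, 5.58 and 5.36 (difference -0.65; adjusted p = 0.0579). Of 42 ATF4 and amino acid response genes, 2 fell, Nupr1 (-0.84) and Eif4ebp1 (-0.57), with a median of -0.14. After the correction Eif4ebp1 was at -0.25 and did not pass (adjusted p = 0.133). Hsph1, a chaperone, rose by 0.79 (adjusted p = 0.0201), the only call among 29 chaperone genes. Of the p53 targets 0 of 31 were called. Sp5, a transcription factor induced by Wnt, rose by 0.98 (adjusted p = 0.0233), the only call among 14 Wnt targets. Of 95 zinc finger genes from Zfp700 to Zfp999, Zfp882 (0.91) and Zfp935 (0.83) rose, and the list median was 0.19, and 0.07 after the correction.

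The same lines grown in serum were set beside the naïve ones. All 22 autosomal genes had the same direction in primed ESCs, where 65.6% of all genes tested did. The difference was smaller in primed ESCs for 21 of the 22 and larger for Cyp4a12b, at 1.74 against 1.40. These genes were chosen by their naïve differences, so the count is a description, and over all genes tested the difference was smaller in primed ESCs for 6775 of 14185. Unpaired, 2 of the 22 were called in primed ESCs, Cyp4a12b (limma, adjusted p = 0.00363) and Tet2 (0.0297), against 0.254% of all genes. Akd1 differed by 0.84 and Dnahc6 by 1.01 in primed ESCs, and Cyba by -0.27. The difference between media was called for 0 of 14185 genes, with 489 (3.45%) at an unadjusted p under 0.05, and for the 22 genes its smallest adjusted p was 0.976. With the block and the correction for length and GC together it was called for 7 genes, none of them among the 22. A change in size between the media was therefore not shown for the 22 genes.

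**Figure D5:**
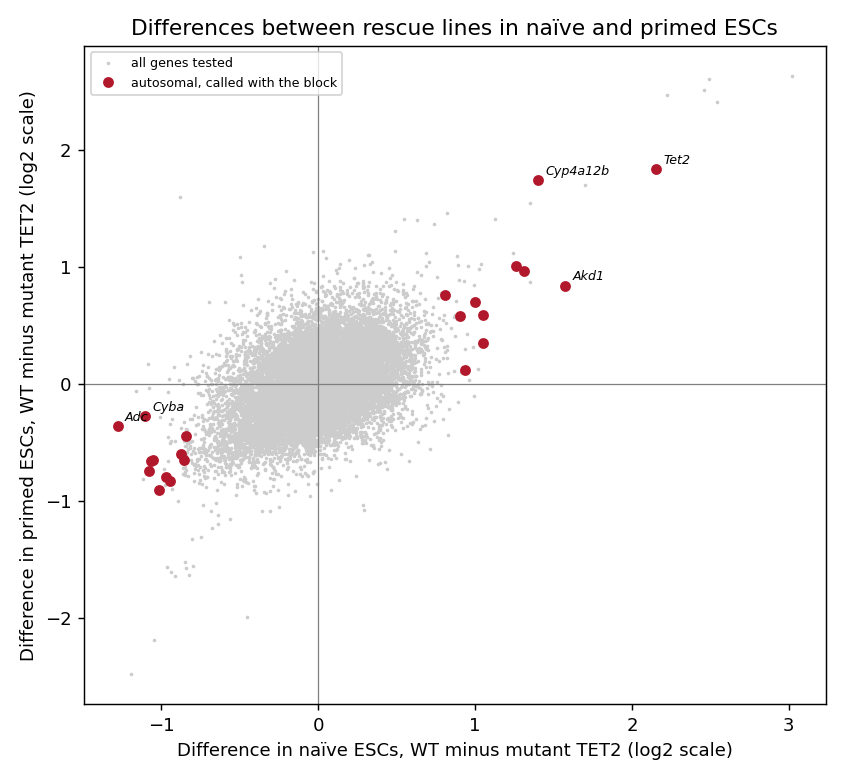
WT minus mutant TET2 difference per gene (log2 scale) in naïve (horizontal axis) and primed ESCs (vertical axis). Grey points are all 14185 genes tested, and red points the 22 autosomal genes called with the replicate block in naïve ESCs, all of which lie in the quadrants of equal sign.

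Along the genome, the median differences of the 19 autosomes lay between -0.09 on chromosome 8 and 0.10 on chromosome 18, and between -0.06 and 0.05 after the correction. Among the 12697 autosomal windows of 50 neighbouring tested genes, the highest median was 0.35, on chromosome 2 from Slmo2 to Sycp2 (174290568 to 178142390 of mm9), and 0.19 after the correction. The lowest, -0.40, held the histone cluster of chromosome 13 (21874784 to 24026025), and was -0.10 after the correction. Such windows overlap each other, and no test was made on them.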

How the data were processed

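Poly(A) RNA-seq libraries, 12 in all and 3 per line and medium, were grouped by their labels. Per the labels and methods, the authors trimmed reads with Trim Galore 0.3.3, aligned them to mm9 with TopHat2 2.0.9, placing a read with several equal positions at 1 of them at random, and deposited DESeq2 variance-stabilised gene values on a log2 scale. The libraries keep no strand. The annotation and the counting tool are not given in the sources used here. Inverting the transformation gave whole reads (tolerance 0.02), from which the depths were taken, and depth limits genes near the lowest value of 3.81. Repeat values were not used.

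Genes with a mean over all 12 libraries at least 1 above the lowest value were fitted with limma 3.58.1 (R 4.3.3) using an intensity trend, with Benjamini-Hochberg adjustment over all genes tested and a call at an adjusted p under 0.05. All 12 libraries entered the unpaired fit and the fit with the replicate number within each medium as a block. Deviations of same-numbered naïve libraries correlated at 0.30 to 0.59, and those of different numbers at -0.38 to -0.01, so the replicate numbers, which come from the labels, were taken to pair the naïve libraries. In primed libraries the range was -0.07 to 0.19 for equal numbers and -0.26 to 0.21 for different ones, so pairing was not seen there. The smallest p of an exact permutation test of 3 libraries against 3 is 0.1, so single genes were tested in the fits alone. The fits were tested on simulated data of 14354 genes for the naïve comparison. Of 100 genes changed by 1 on the log2 scale, 74 were recovered unpaired and 86 with the block, and 9 unchanged genes were called with the block. With the block in naïve libraries alone 86 were recovered and 5 unchanged genes were called. Unlike the data, the simulation gave same-numbered libraries a shared deviation in both media and held no bias by exon length or GC. The number of false calls in the data may therefore differ.

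Members and gene lists were chosen with earlier results of these data known. Text names the genes called unpaired outside the Y chromosome, up to 15 autosomal genes per direction called with the block with a mean at least 2 above the lowest value and 1 sign in 3 pairs, up to 4 called genes per list (otherwise 2 with the largest difference or smallest p), the TET genes and Setdb1, and neighbours. Other genes of the lists were named after their values were seen. Exon lengths and GC contents come from the mm9 annotation (99.9% and 93.7% of tested genes). The correction subtracted a loess per library (span 0.5, degree 1) on exon length and then on GC, and was chosen after seeing the data. Alternatives changed the filter, trend, scaling, libraries, threshold, chromosomes and test (limma-voom on recovered reads). Tables and figures were made in Python 3.11.15 with numpy 2.4.6, pandas 2.3.3 and matplotlib 3.10.9.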

Additional observations from a re-analysis of the deposited data

Results flagged for a closer look

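H19, an imprinted long non-coding RNA (chromosome 7, 149761434 to 149764048 of mm9), had differences of opposite sign in the media. In naïve ESCs it was lower with WT TET2, by a difference of -0.88, on 7, 0 and 0 reads with WT and 14, 10 and 18 with mutant TET2. This difference passed with the replicate block in naïve libraries alone (limma, adjusted p = 0.0381), but not unpaired (0.281) or with the block in all libraries (0.106), and the gene passed the filter on low values through the primed libraries. In primed ESCs it was higher, by 1.60 (limma, adjusted p = 0.0323), on 871, 934 and 2769 reads against 324, 575 and 226. Every library of the lines lay on opposite sides in the media. The test of the difference between media gave an adjusted p of 0.348 unpaired, and 0.0143 without WT naïve replicate 1. With the replicate block it passed after centring on the median (0.0487) and without pair 1 (0.00787) or pair 3 (0.0426). It did not pass in the block fit on the deposited values, nor with the block quantile normalised, by limma-voom or without pair 2. With 0 reads in 2 WT libraries, no fold is given for naïve ESCs.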

How the results depend on the processing

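Unpaired, 14 genes (6 autosomal) were called. The count was 8 (2) with no filter, 9 (2) from the 6 naïve libraries alone, 0 (0) without X and Y genes, 9 (2) corrected for exon length and 19 (10) for length and GC, 7 (1) with that correction in naïve libraries alone, 2 (2) with it and without X and Y genes, 6 (0) at an adjusted p under 0.01, and 5 to 14 (0 to 7) with single libraries left out. Without WT replicate 3, mutant replicate 1 or mutant replicate 2, 0 autosomal genes passed.

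The replicate block gave 36 (22) calls, against 14 (6) with no block. With the block the count was 19 (10) with no filter, 59 (43) centred on the median, 103 (82) quantile normalised, 67 (49) with limma-voom, 10 (10) without X and Y genes, 360 (325) at an adjusted p under 0.1 and 12 (5) under 0.01, and 13 autosomal genes also differed by more than 1. Corrected for length and GC it was 683 (635), and 623 (623) without X and Y genes. In naïve libraries alone it was 541 (488), 464 (464) without X and Y genes and 1236 (1163) corrected. Leaving out pair 1, 2 or 3 gave 15 (8), 11 (3) or 17 (10) calls, and 100 (82), 180 (149) or 1044 (978) in naïve libraries alone. The causes were not tested.

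The difference between media was called for 0 genes, for 1 (H19) without WT replicate 1 and for 7 with the replicate block and the correction, with or without X and Y genes. With the block it was also called for 1 gene (H19) centred on the median, for 2 (H19 and 2410004A20Rik) without pair 1 and for 1 (H19) without pair 3. The difference of Tet3, -0.03, was 0.0418 quantile normalised, unpaired and with the block, -0.17 to 0.10 with single libraries left out and 0.22 with the block without pair 3. Setdb1, 0.13, was -0.00458 corrected for length, -0.00794 for length and GC, -0.00755 without X and Y genes and -0.00826 in naïve libraries alone, with or without the block, and -0.0678 to 0.31 with single libraries left out, negative without WT replicate 3. Of the other values of named genes, 573 kept direction and call, 77 lost and 195 gained a call. Of the list medians 490 moved by less than the spread between replicates and 56 by more. Low-count genes are limited by depth.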
